A study of Mus musculus with 9 samples.

Results

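Ly6a, Ly6e, Ly6c1 and Ly6c2 encode small surface antigens of the Ly6 family and were examined together across the kidneys of 3 groups of mice. They were picked by gene symbol from the deposited count files and are 4 of the 54532 gene identifiers counted. All 4 passed the filter on low counts that left 16646 genes for testing.

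Ly6 proteins belong to the Ly6/uPAR family, whose members share a three-finger fold held by disulfide bonds, and most sit on the outer face of the plasma membrane through a glycosylphosphatidylinositol (GPI) anchor. Several are used as lineage markers of mouse blood and vessel cells, and several are known to be induced by interferon. Ly6a is better known as Sca-1, a marker of haematopoietic stem and progenitor cells that endothelial cells also carry. Ly6e is widely expressed and is known as a host factor that restricts coronavirus entry. Ly6c1 and Ly6c2 together encode the Ly6C antigen, with Ly6c1 typical of endothelial cells and Ly6c2 of inflammatory monocytes and some lymphocytes.

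PolyA-selected RNA of whole kidney was sequenced as paired reads in 9 libraries, 3 per group. One group was WT, and both others were Trex1-/-, one injected with PBS and one with SN-011. TREX1 is an exonuclease that removes DNA from the cytosol, and SN-011 blocks STING, which passes on the signal of the DNA sensor cGAS. Total counts ran from 16118813 to 21928965 per library. By the study's methods, the Trex1-/- mice were offspring of Trex1+/- parents, were month-old when treatment began, and were injected daily into the peritoneum for 2 weeks with SN-011 or with its vehicle, PBS containing Tween 80. WT mice were bought rather than bred from those parents, and no injection is described for them. The methods give a range for their age at purchase, and their age at dissection is not stated. Genotype, origin and injection thus cannot be told apart between WT and the PBS group. The labels give C57BL/6J for all 9 libraries and name no sex. The deletion is constitutive and all cell types of the kidney were pooled in each library.

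Several facts of the libraries touch the results. Trex1 was listed at 0 counts in all 9 libraries, WT included, and 100% of its exonic bases are shared with Atrip on the same strand, so the counts do not check the genotype. Transcripts of 4 Y-linked genes (Ddx3y, Eif2s3y, Kdm5d and Uty) summed to 153 to 188 CPM in 5 libraries and to at most 0.377 CPM in the other 4. CPM is the count of a gene per 1000000 counts of its library; for the Ly6 genes and lists, library sizes were adjusted by edgeR's TMM factors. The 5 libraries with such reads were replicate 3 of WT, all 3 of the PBS group and replicate 2 of the SN-011 group, so the groups differ in sex as well as in genotype and treatment. Kidney epithelial markers, from Lrp2 of the proximal tubule to Nphs1 of the podocyte, were present in every group, with summed levels of 16100 to 19600 CPM over 10 genes.

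The 4 genes lie within 157 kb of chromosome 15 (GRCm38). Ly6e (ENSMUSG00000022587; chr15:74955051-74959905) is on the plus strand, and Ly6a (ENSMUSG00000075602; chr15:74994877-74998031), Ly6c1 (ENSMUSG00000079018; chr15:75044018-75048830) and Ly6c2 (ENSMUSG00000022584; chr15:75108158-75111970) are on the minus strand. None shares exonic bases with another annotated gene. The members differ widely in how alike they are, which matters for counting. Ly6c1 and Ly6c2 have 393 coding bases each and differ at 9 of them, an identity of 97.7%. Ly6a is 83.7% identical to Ly6c1 and 83.5% to Ly6c2 over the aligned coding bases, and Ly6e is 55.1% to 57.6% identical to the other three.

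The stretch of 60 coding bases that holds most of the differences between Ly6c1 and Ly6c2 is shown first, because reads over it tell the genes apart. It spans coding bases 6 to 65, written 5′ to 3′ on the minus strand of GRCm38, from chr15:75048447-75048506 for Ly6c1 and chr15:75111603-75111662 for Ly6c2, with the 6 bases that differ in capitals.
Ly6c1: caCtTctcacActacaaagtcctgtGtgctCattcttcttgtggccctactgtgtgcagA
Ly6c2: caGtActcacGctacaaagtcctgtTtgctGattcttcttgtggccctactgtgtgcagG
The next stretch lies within the longest identical run of the coding sequences, 188 bases, which is longer than a 150-base read. It spans coding bases 71 to 130 and reads the same at chr15:75047410-75047469 in Ly6c1 and chr15:75110568-75110627 in Ly6c2.
Ly6c1 and Ly6c2: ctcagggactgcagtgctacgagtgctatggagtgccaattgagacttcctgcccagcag
A single read that falls wholly inside such a run matches both genes, and its pair can be assigned only where the mate reaches a base that differs. Over the first-numbered transcript of each gene in the annotation, 5.61% of the 150-base words of Ly6c1 also occurred in transcripts of Ly6c2, and 5.79% of those of Ly6c2 occurred in Ly6c1. For Ly6a and Ly6e, 0% of such words occurred in another gene. Of 50-base words of the same transcripts, 36.7% for Ly6c1 and 33% for Ly6c2 occurred in another gene. These shares do not bound the error of the counts, and reads assigned to the wrong gene were not measured. In WT, Ly6c2 held 13 of 2018, 31 of 2209 and 23 of 1701 counts of the pair. A small misassigned share of Ly6c1 reads could therefore weigh heavily on the Ly6c2 level.

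Levels of different genes were compared per kilobase (kb) of annotated exon. In WT kidney, Ly6a stood at 391 ± 42.9 CPM per kb, Ly6e at 96.0 ± 21.1, Ly6c1 at 57.6 ± 1.16 and Ly6c2 at 0.407 ± 0.159 (mean ± SD, n = 3 each). On this scale no 2 neighbours in the order overlapped between libraries of WT. The order of Ly6a and Ly6e rests on the choice of length. Per kb of the median protein-coding transcript, Ly6a ran from 513 to 620 and Ly6e from 398 to 573 CPM per kb across WT libraries, and these ranges overlap. Ly6c1 came after Ly6e, and Ly6c2 was last, on both scales, in every group.

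In the kidneys of Trex1-/- mice given PBS, Ly6c2 and Ly6e rose against WT, Ly6a was higher by nearly the same factor as Ly6e but missed the threshold, and Ly6c1 did not pass the test. The comparison asks what the loss of TREX1 does to the kidney transcriptome. The members called higher are thus 2 of 4, where 1.44% of the 16646 genes tested were called higher. The groups did not overlap, with every PBS library above every WT library, for 3 of 4 members and for 13.1% of all genes. The median log2 fold change of the members was 1.0, and that of all genes tested was 0.003.

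Ly6a, the Sca-1 antigen, had 440, 443 and 531 CPM in WT replicates 1 to 3, and 766, 934 and 1045 CPM in the PBS group. The lowest PBS library stood above the highest WT library. Ly6a was 1.94 times as high in the PBS group (95% interval 1.39 to 2.71), a log2 fold change of 0.96 (SE 0.216) with an edgeR quasi-likelihood adjusted p of 0.0583. The call turns on the setting. Over 19 alternatives the adjusted p ran from 0.000432 to 0.216, and Ly6a was called higher in 7 of them, among them the DESeq2 Wald test and edgeR's exact test.

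Ly6e, the coronavirus restriction factor, had 316, 318 and 456 CPM in WT and 663, 794 and 788 CPM in the PBS group. WT replicate 3, the WT library with Y-linked reads, was the highest of its group and still lay below every PBS library. The log2 fold change was 1.04 (SE 0.221), a factor of 2.06 (95% interval 1.47 to 2.90), with an edgeR adjusted p of 0.0436. The call was lost when WT replicate 1 or 2, any 1 PBS library, or SN-011 replicate 3 was left out, with adjusted p from 0.0536 to 0.194.

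Ly6c2, the monocyte Ly6C gene, changed most among the members and from the lowest level. It had 13, 31 and 23 counts in the WT libraries, or 0.613, 1.40 and 1.33 CPM. In the PBS group it had 103, 149 and 124 counts, or 6.27, 8.70 and 7.71 CPM. The log2 fold change was 2.76 (SE 0.358), a factor of 6.78 (95% interval 3.91 to 11.8), with an edgeR adjusted p of 0.00256. Ly6c2 remained called in all 19 alternatives, with log2 fold changes from 2.46 to 2.98 and adjusted p from 3.7e-12 to 0.0155.

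Ly6c1, the endothelial Ly6C gene, had 94.5, 98.4 and 97.1 CPM in WT and 110, 96.9 and 116 CPM in the PBS group. PBS replicate 2 lay among the WT libraries, so the groups overlapped. The log2 fold change was 0.15, with a 95% interval of -0.10 to 0.41 and an edgeR adjusted p of 0.565. A rise by more than a factor of 1.33 lies outside that interval. Leaving out 1 library gave 0.09 (without PBS replicate 3) to 0.22 (without PBS replicate 2). Ly6c1 was not called in any of the 19 alternatives.

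**Figure D1:**
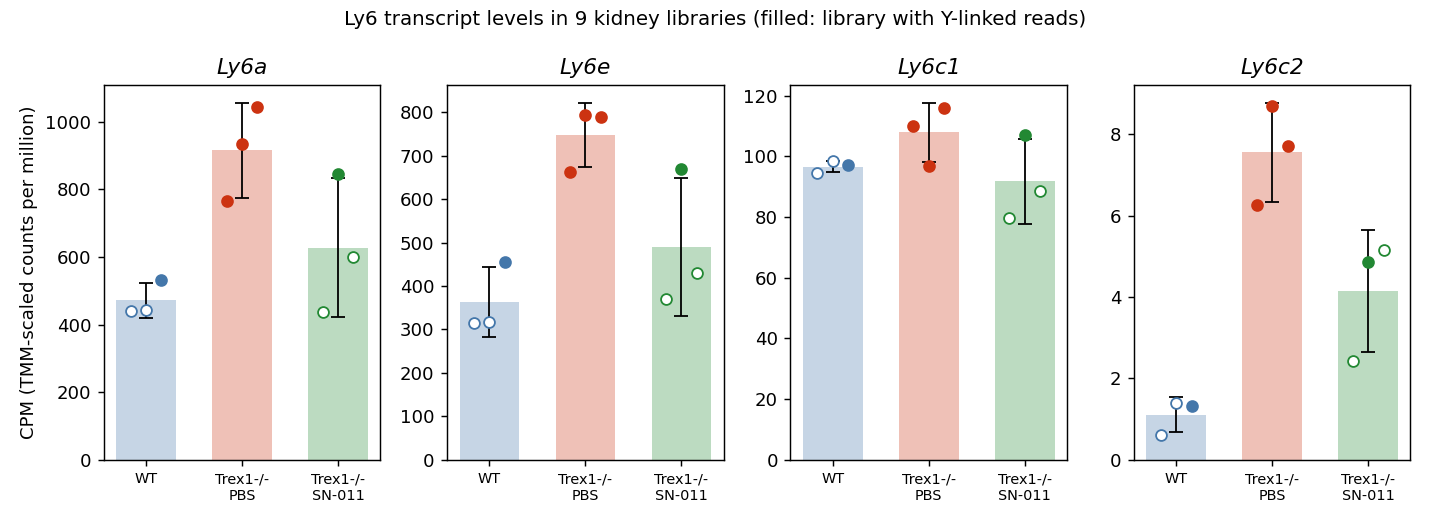
TMM-scaled CPM of Ly6a, Ly6e, Ly6c1 and Ly6c2 (one panel each, axes from 0) in WT, Trex1-/- PBS and Trex1-/- SN-011 kidneys. Points are libraries (filled where Y-linked reads were found), bars are group means and error bars are SD (n = 3). For Ly6a, Ly6e and Ly6c2 all PBS libraries lie above all WT libraries, and the one SN-011 library holding Y-linked reads reaches 844 CPM for Ly6a and 669 CPM for Ly6e.

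The near-identity of Ly6c1 and Ly6c2 allows their reads to be compared within a library, where scaling and depth cancel. Of the counts assigned to either gene, Ly6c2 took 0.644%, 1.40% and 1.35% in WT replicates 1 to 3, with Wilson 95% intervals of 0.377 to 1.10, 0.990 to 1.99 and 0.903 to 2.02. In the PBS group it took 5.40% (4.47 to 6.50), 8.24% (7.06 to 9.59) and 6.23% (5.25 to 7.38). In the SN-011 group it took 2.97% (2.21 to 3.98), 4.35% (3.53 to 5.35) and 5.50% (4.48 to 6.74). The WT shares lay below those of the other groups without overlap. SN-011 replicate 3 lay between PBS replicates 1 and 3, so the PBS and SN-011 groups overlapped on this scale, though they did not in CPM. The intervals cover counting error only, not reads assigned to the wrong gene.

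**Figure D2:**
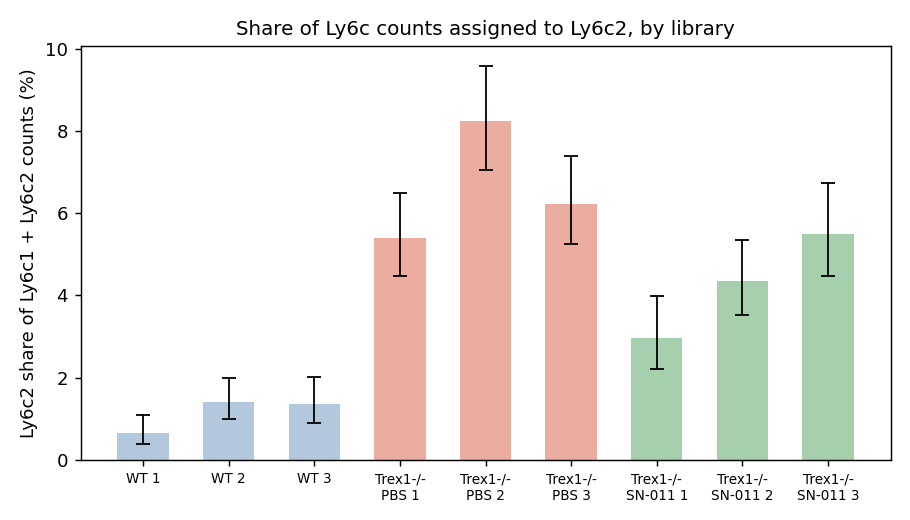
Share of Ly6c1 plus Ly6c2 counts assigned to Ly6c2 (percent) in each of the 9 libraries, coloured by group. Error bars are Wilson 95% intervals. WT libraries sit at 0.644% to 1.40%, PBS libraries at 5.40% to 8.24% and SN-011 libraries at 2.97% to 5.50%.

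SN-011 was given to ask whether blocking STING changes the transcriptome of Trex1-/- kidney. All 4 members had lower mean levels with SN-011 than with PBS, and none was called. At an adjusted p under 0.05, 0 of 16646 genes were called in edgeR's quasi-likelihood test (0% lower), with 1905 at an unadjusted p under 0.05. The DESeq2 Wald test called 183 genes, edgeR's exact test called 127 and limma-voom called 0, with no member among them. Every SN-011 library lay below every PBS library for 1 of 4 members, Ly6c2, and for 8.41% of all genes.

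Ly6a had 436, 844 and 600 CPM in SN-011 replicates 1 to 3, a mean of 627 ± 206 (SD, n = 3) against 915 ± 141 with PBS. Replicate 2 lay within the PBS range, and replicate 1 lay below the lowest WT library. The log2 difference, SN-011 minus PBS, was -0.55 (95% interval -1.02 to -0.07, edgeR adjusted p 0.387). Ly6e followed the same order of libraries, with 370, 669 and 431 CPM in SN-011 replicates 1 to 3 and a mean of 490 ± 158 against 748 ± 73.8 with PBS. Its log2 difference was -0.61 (95% interval -1.10 to -0.12, edgeR adjusted p 0.338). Both values moved with the SN-011 library left out. Without replicate 1, edgeR gave -0.34 for Ly6a (adjusted p 0.712) and -0.44 for Ly6e (adjusted p 0.672). Without replicate 2, it gave -0.83 for Ly6a (adjusted p 0.032) and -0.91 for Ly6e (adjusted p 0.0255), and called 519 genes in all, 390 of them lower (2.29% of the genes tested). Replicate 2 was the only SN-011 library with Y-linked reads, so without it every PBS library had such reads and no SN-011 library did, and treatment and sex cannot be told apart in those calls.

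Ly6c2 had 43, 84 and 87 counts with SN-011, or 2.44, 4.87 and 5.16 CPM, against a lowest PBS library of 6.27 CPM. The groups did not overlap, and the log2 difference was -0.86 (95% interval -1.58 to -0.15, edgeR adjusted p 0.354). For this gene SN-011 replicate 2 was the middle library of its group, and leaving it out gave -1.0 (adjusted p 0.154). Without replicate 1 the difference was -0.59 (adjusted p 0.672), and without replicate 3 it was -1.04 (adjusted p 0.314). Ly6c1 had 79.6, 107 and 88.7 CPM with SN-011. It was the member closest to 0, at -0.23 (95% interval -0.48 to 0.03, edgeR adjusted p 0.485). Without SN-011 replicate 1 it was -0.14, and without SN-011 replicate 2 it was -0.36.

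Set against WT, the SN-011 kidneys had mean levels of Ly6a, Ly6e and Ly6c2 between those of WT and PBS, and Ly6c2 alone was called. This comparison shares its libraries with the other comparisons. The members called higher were 1 of 4, beside 0.823% of all genes. Every SN-011 library exceeded every WT library for 1 of 4 members, Ly6c2, and for 11.8% of all genes. Ly6c2 was higher than in WT by 1.90 on the log2 scale (SE 0.361), a factor of 3.72 (95% interval 2.14 to 6.50), with an edgeR adjusted p of 0.0379. That call was lost in 9 of 19 alternatives, with adjusted p from 3.13e-05 to 0.143, while the log2 fold change stayed between 1.60 and 2.17. Among the 9 were fits that left out each WT library, each PBS library or SN-011 replicate 3 in turn. Ly6a stood at 0.41 (95% interval -0.07 to 0.89, adjusted p 0.348), Ly6e at 0.43 (-0.06 to 0.92, adjusted p 0.335) and Ly6c1 at -0.07 (-0.33 to 0.18, adjusted p 0.778). Without SN-011 replicate 2, Ly6a and Ly6e were each at 0.13 (adjusted p 0.725 and 0.709), so their intermediate means rest largely on that library. Without SN-011 replicate 1 they were at 0.61 and 0.60.

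**Figure D3:**
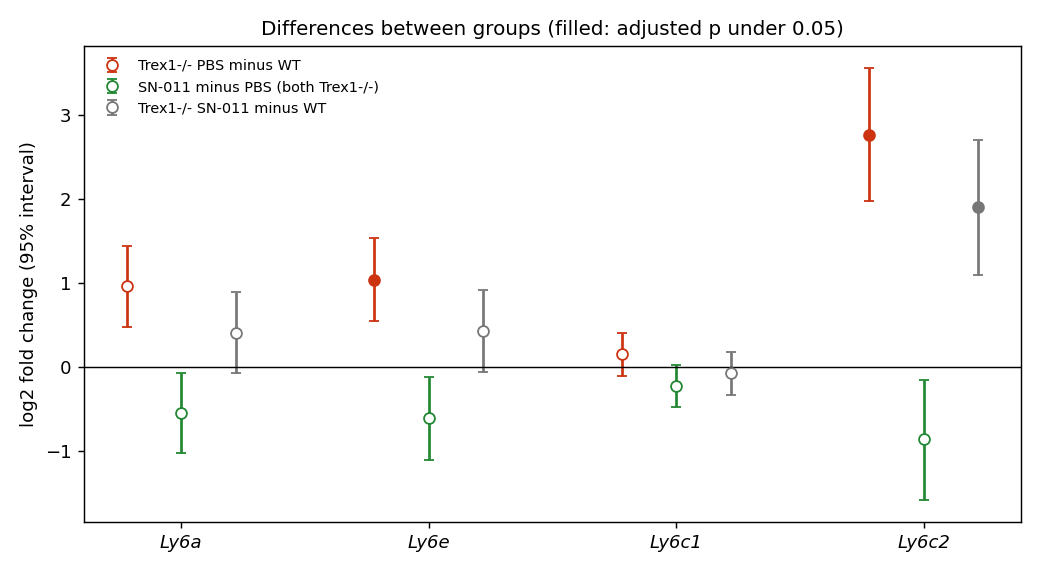
Log2 fold change of each Ly6 member in the 3 comparisons, with 95% intervals from the edgeR fit (all 9 libraries). Filled points have an adjusted p under 0.05. Ly6c2 has the highest points at 2.76 and 1.90 against WT, Ly6e is filled at 1.04 against WT, and the intervals of Ly6c1 include 0 in each comparison.

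Because libraries with Y-linked reads are spread unevenly over the groups, members were also read by that property. In WT, the library with Y-linked reads had 531 CPM of Ly6a and those without had 440 and 443 CPM. Its Ly6e level was 456 CPM, against 316 and 318 CPM. In the SN-011 group, the library that had such reads stood at 844 CPM for Ly6a and 669 CPM for Ly6e, and those without had at most 600 and 431 CPM. Ly6a and Ly6e were thus highest, within both mixed groups, in the library with Y-linked reads. For Ly6c2 that library was the middle one in both groups. A Y-linked term in the edgeR fit lowered the PBS against WT log2 fold change of Ly6a to 0.63 (adjusted p 0.202) and of Ly6e to 0.64 (adjusted p 0.046), and left Ly6c2 at 2.51 (adjusted p 0.0148). With the same term, SN-011 minus PBS was -0.25 for Ly6a (adjusted p 0.709), -0.23 for Ly6e (adjusted p 0.591) and -0.63 for Ly6c2 (adjusted p 0.639). Ly6c1 was at 0.03 in PBS against WT (adjusted p 0.954) and at -0.12 in SN-011 minus PBS (adjusted p 0.819). The term thus moved the Ly6a, Ly6e and Ly6c1 differences by over 1.5 times in both comparisons. It rests on 1 library with such reads in each mixed group, WT replicate 3 and SN-011 replicate 2. Pairs with that library differed by 35.6 to 35.9 times the counting variance in WT (8.59 for the other pair). In the SN-011 group they differed by 76.2 to 87.1 times (17.5 for the other pair). The term cannot be told apart from other differences of those libraries. All PBS libraries carried Y-linked reads, so the libraries without them hold no PBS sample to compare.

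Genes of the interferon route were set beside the members, since several Ly6 genes are interferon-inducible. The ligands were almost absent from the counts. Of 10 interferon genes, 7, including Ifnb1, had no count in any library, which allows at most 0.137 to 0.186 CPM per library, and none was tested. Of 10 genes of sensing and reception, 0 were called in PBS against WT by edgeR's quasi-likelihood test (2 at an unadjusted p under 0.05, both higher, where 2532 of all 16646 genes were at such a p), and 0 by DESeq2, edgeR's exact test or limma-voom. Among 13 signal transducers, 6 were called higher (median of all 13, 0.86), with Usp18, which restrains interferon receptor signalling, at 2.78 (adjusted p 7.59e-05), the transcription factor Irf7 at 3.08 (adjusted p 0.000237) and Stat2 at 1.44 (adjusted p 0.000334).

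Interferon targets were called higher in 21 of 22 cases, with Gbp3 at 1.31 (adjusted p 0.064) the exception. Their median log2 fold change was 1.84. Oas2, an antiviral RNA-sensing synthetase, was at 3.20, Oas1a at 2.83 and Ifit1 at 3.13. Isg15, a ubiquitin-like modifier, rose from 6.60 ± 2.03 CPM in WT to 61.9 ± 13.7 CPM with PBS (SD, n = 3 each), a log2 fold change of 3.24 (edgeR adjusted p 0.000212). Ifit3 was at 2.36 (adjusted p 0.000128). Ly6c2, at 2.76, stood above the median of these targets, and Ly6e and Ly6a, at 1.04 and 0.96, stood below each of the 22. Between SN-011 and PBS, 22 of 22 targets were below 0, with a median of -0.70, beside -0.58 for the Ly6 members. With the Y-linked term the medians were -0.57 for the targets, 17 of 22 of them at an unadjusted p under 0.05, and -0.24 for the members, 0 of 4. Without the term, none of the targets was called by edgeR's quasi-likelihood test or limma-voom, 21 had an unadjusted p under 0.05 in the former, and 14 were called lower by DESeq2 and 9 by edgeR's exact test. With the Y-linked term, all 22 targets were called higher in PBS against WT, where 2 of 4 members and 0.907% of all genes were. Against WT, SN-011 kidneys had 18 of 22 targets and 5 of 13 transducers called higher.

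The rest of the Ly6/uPAR family mostly did not pass the test. Of 36 other family genes looked for, 34 were found, 16 were tested and 1 was called higher in PBS against WT by edgeR's quasi-likelihood test. DESeq2 and limma-voom each called 2 higher, and edgeR's exact test called 2 higher and 1 lower. The median log2 fold change of the 16 was -0.21. The gene called by the quasi-likelihood test was Ly6i, which lies 24.5 kb from the start of Ly6e within the same cluster. It had 1, 4 and 0 counts in WT, 20, 25 and 10 with PBS and 7, 9 and 6 with SN-011, so its log2 fold change of 3.65 (adjusted p 0.0175) rests on few reads. With the Y-linked term, 0 of the 16 were called, and 2 had an unadjusted p under 0.05. Words of 50 bases were shared among Ly6i, Ly6a and Ly6c1, though no word of 150 bases was. Lypd8 had 0 counts in each WT library, 10, 14 and 7 with PBS and 8, 15 and 1 with SN-011 (edgeR adjusted p 0.064 in PBS against WT). Ly6f had 104, 204 and 14 counts in WT and 19, 13 and 6 with PBS, so the groups overlapped (log2 fold change -2.70, adjusted p 0.137). In the interval from Ly6e to Ly6c2 the annotation holds 11 counted genes, of which 5 were tested, and those 5 are the members and Ly6i. The other 6 are pseudogenes, long noncoding RNAs and a gene of unconfirmed type, with at most 22 counts over all libraries. Gpihbp1, which carries lipoprotein lipase across the endothelium, was at 0.39 (adjusted p 0.602), and Cd59a, a complement inhibitor, was at -0.36 (adjusted p 0.331). Ly6g, the neutrophil antigen, had 2 counts in 1 library and 0 in the others.

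Genes that build and attach the GPI anchor were listed as well, because Ly6 proteins need it. Of 26 tested, 0 were called in any of the 3 comparisons by edgeR's quasi-likelihood test, and 4 had an unadjusted p under 0.05 in PBS against WT, beside 2532 of the 16646 genes tested. DESeq2, edgeR's exact test and limma-voom also called 0 of them in PBS against WT. Their median log2 fold change was 0.05 in PBS against WT.

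**Figure D4:**
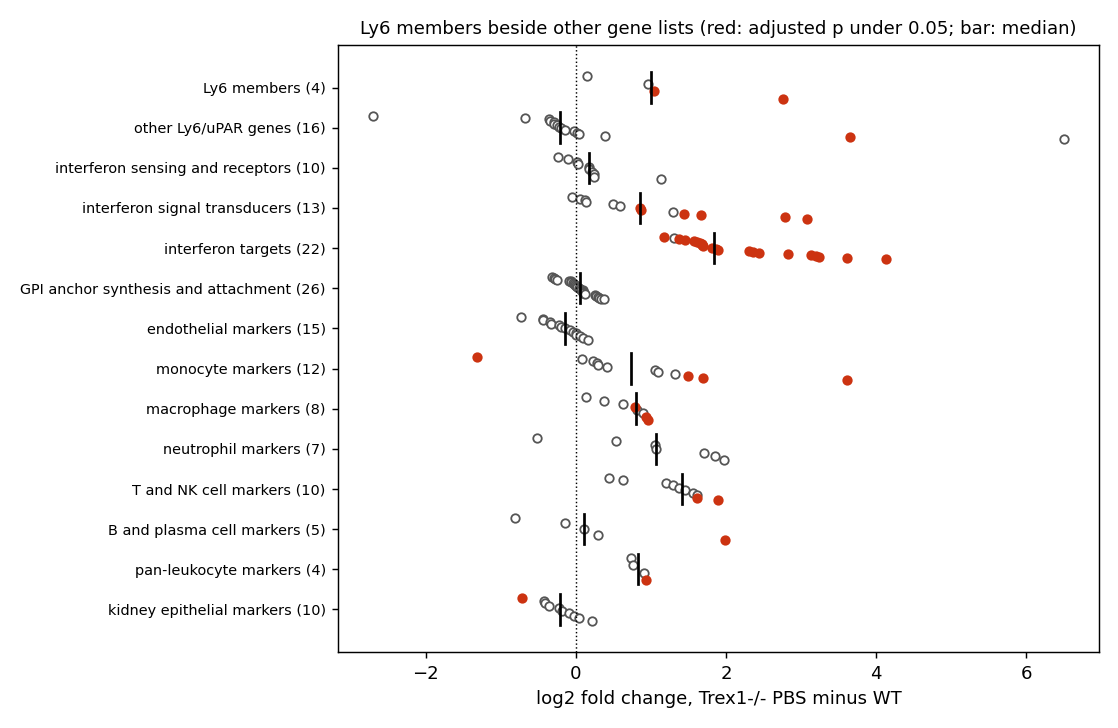
Log2 fold change, Trex1-/- PBS minus WT, of every tested gene in each list (number tested in parentheses), with red points at an adjusted p under 0.05 and a black bar at the list's median. The Ly6 members run from 0.15 to 2.76, interferon targets have a median of 1.84, and the medians of the GPI-anchor and endothelial lists are 0.05 and -0.14.

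In whole tissue, more cells of a type and more RNA per cell cannot be told apart, so markers of the cells known to carry these antigens were read beside them. Endothelial markers, relevant to Ly6a and Ly6c1, were called in 0 of 15 cases in PBS against WT by edgeR. Of the 15, 5 had an unadjusted p under 0.05, all of them lower, beside 2532 of the 16646 genes tested in either direction. DESeq2 called 4 lower, edgeR's exact test 1 and limma-voom 0. Their median log2 fold change was -0.14, and their summed level was 1400 to 1550 CPM in WT, 1260 to 1360 CPM in PBS and 1100 to 1310 CPM in SN-011 libraries. Single genes varied within the list, with Plvap at 410 CPM in WT and 305 CPM in PBS kidneys on average, and Pecam1 at 97.4 and 97.7 CPM. The part of endothelial cells in the Ly6a difference was not tested. The vessel gene Plvap was called lower in SN-011 than in WT, at -0.53 (adjusted p 0.0383).

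Monocyte markers, relevant to Ly6c2, were called higher in 3 of 12 cases and lower in 1, with a median of 0.74. Their summed level was 154 to 183 CPM in WT, 224 to 232 CPM in PBS and 133 to 198 CPM in SN-011 libraries. The largest parts of that sum were Csf1r (means of 73.2 CPM in WT and 88.8 CPM with PBS) and Fn1 (58.3 and 68.4 CPM). Neither of them was called. Plac8 was at 1.5 (adjusted p 0.00638), the Fc receptor gene Fcgr1 at 1.69 (adjusted p 0.00721) and Ms4a4c at 3.61 (adjusted p 0.00414), while Vcan, a matrix proteoglycan, was at -1.32 (adjusted p 0.0125). Ccr2, the chemokine receptor that defines inflammatory monocytes, had 3.37 ± 1.07 CPM in WT and 4.47 ± 0.233 CPM with PBS, a log2 fold change of 0.42 (adjusted p 0.521). None of the 12 was at 0 in any group.

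Other leukocyte lists differed in how many of their genes were called in PBS against WT. Macrophage markers were called higher in 3 of 8 cases, the complement genes C1qa (0.94), C1qb (0.79) and C1qc (0.96), and summed to 104 to 128 CPM in WT and 174 to 200 CPM with PBS. T and NK cell markers were called higher in 2 of 10 tested cases, Cd3g (1.90) and Cd4 (1.61), and summed to 10 to 14.8 CPM in WT and 24.5 to 40.0 CPM with PBS. Of B and plasma cell markers 1 of 5 was called, Jchain, at 1.99, with a list median of 0.11, and of pan-leukocyte markers 1 of 4, Coro1a, at 0.94. DESeq2 and edgeR's exact test each called 4 of 8 macrophage, 5 of 10 T and NK cell and 3 of 4 pan-leukocyte markers, all higher. The pan-leukocyte sum was 45.4 to 60.1 CPM in WT, 84.6 to 98.0 CPM in PBS and 50.7 to 80.6 CPM in SN-011 libraries. Neutrophil markers were called in 0 of 7 cases by edgeR's quasi-likelihood test, and DESeq2 called 1. In the quasi-likelihood test 2 of the 7 had an unadjusted p under 0.05, beside 2532 of the 16646 genes tested. Kidney epithelial markers were called higher in 0 and lower in 1 of 10 cases, Slc5a2, the tubular glucose transporter, at -0.71. With the Y-linked term, 0 macrophage, 0 T and NK cell and 0 pan-leukocyte markers were called. Their median log2 fold changes with that term were 0.59 (0.80 without it), 1.02 (1.42 without it) and 0.57 (0.83 without it), and 6 of 8, 4 of 10 and 3 of 4 of them had an unadjusted p under 0.05, all higher. The monocyte median was 0.43 with the term, with 3 markers called higher. The part of these cells in the Ly6 differences was not tested.

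The members were also compared by their pattern over the 9 libraries, as Pearson's r of log2 CPM, a description without a test in which libraries of a group share their treatment. Ly6a and Ly6e had an r of 0.977 (Spearman's rho 0.917), and Ly6c2 had 0.866 with Ly6a and 0.867 with Ly6e. Ly6c1 and Ly6c2, the closest pair in sequence, had the lowest r of any pair, 0.389. Among 14842 genes with a mean of at least 1 CPM, with the members left out of the ranking, the gene most like both Ly6a (r 0.988) and Ly6e (r 0.980) was H2-T22, a nonclassical class I histocompatibility gene. It averaged 92.4 CPM in WT, 177 CPM in PBS and 117 CPM in SN-011 libraries. After it, outside the members, came Dazap2 (r 0.956) and the leukocyte gene Laptm5 (r 0.955) for Ly6a, and the complement gene C4b (r 0.970) and the diacylglycerol kinase gene Dgkg (r 0.969) for Ly6e.

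Ly6c2 was most like Cmpk2, a mitochondrial nucleotide kinase gene known to be induced by interferon (r 0.991), Slfn1 (r 0.987) and Fcgr1 (r 0.984). Cmpk2 averaged 20.5, 62.4 and 43.2 CPM in WT, PBS and SN-011 kidneys. Ly6c1 was most like Ola1 (r 0.937), Guca2b, which encodes uroguanylin (r 0.933), and Pus10 (r 0.923), none of which was called in PBS against WT.

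The promoters of Ly6c1 and Ly6c2 are shown because these genes are nearly identical in coding sequence and differed in level and in response. Of the 4 members, 2 matched the RefSeq promoter sequences (GRCm38.p6), and Ly6a and Ly6e had no entry. The 250 bases before each gene's outermost start, on the minus strand, 5′ to 3′, were taken from chr15:75048838-75049087 for Ly6c1 and chr15:75111972-75112221 for Ly6c2. Capitals mark TATAAA.
Ly6c1: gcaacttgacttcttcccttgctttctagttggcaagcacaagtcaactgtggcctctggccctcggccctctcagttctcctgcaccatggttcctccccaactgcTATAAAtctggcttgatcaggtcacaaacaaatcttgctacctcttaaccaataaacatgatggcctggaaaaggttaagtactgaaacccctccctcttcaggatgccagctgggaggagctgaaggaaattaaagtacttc
Ly6c2: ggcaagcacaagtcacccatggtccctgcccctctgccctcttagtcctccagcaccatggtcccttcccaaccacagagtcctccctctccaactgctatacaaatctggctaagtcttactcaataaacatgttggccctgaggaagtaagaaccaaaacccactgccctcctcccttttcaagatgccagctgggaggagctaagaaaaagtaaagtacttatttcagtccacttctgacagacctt
Over 216 aligned bases they were 75.9% identical, below the 97.7% of the coding sequences. TATAAA, searched on both strands, was found in this Ly6c1 window, not in the second Ly6c1 window that RefSeq gives for a start further downstream, and in neither Ly6c2 window, and 12.4% of 32851 promoter windows of this length held it. The core of the interferon-stimulated response element (ISRE) was in neither, and 2.98% of all windows held it. TTCNNNGAA, the gamma-activated site (GAS), was in neither, and 7.02% of all windows held it. The absence of these letters from a window says nothing of other sequence near the genes.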

How the data were processed

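Each file held the raw count of reads per Ensembl gene for 1 library, as deposited by the authors. Per their methods and processing notes, reads of 2 × 150 bases were trimmed with Trimmomatic, aligned to mm10 with HISAT2, and uniquely mapped pairs were counted with featureCounts. Tool versions, annotation and strand setting are not given in the sources used here. Of 54532 identifiers, 54495 matched GENCODE vM21 (GRCm38), which gave symbols and positions.

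The analysis used edgeR 4.0.16 under R 4.3.3. Genes passing filterByExpr (minimum count 10, minimum total 15) were scaled by the TMM method (trimmed mean of M-values). A single quasi-likelihood model with 1 mean for each group was fitted to the 9 libraries. A gene was called at a Benjamini-Hochberg adjusted p under 0.05 over 16646 genes, and all tests were two-sided. A fitted log2 fold change is on the scale of TMM-scaled counts. Depth was 16118813 to 21928965 counts per library, and counting error weighs most on Ly6c2 and Ly6i, which had the fewest counts. The labels do not say that libraries came from separate animals, so p-values measure the spread between these libraries. Pairs of libraries within a group differed by 8.59 to 87.1 times the counting variance, more than a resequenced library would give. By their Y-linked reads, WT replicate 3 and SN-011 replicate 2 came from other animals than the remaining libraries of their groups. The study's legend gives n = 3 per group for the treated kidneys. For the other pairs of libraries, whether they came from the same animal was not tested. The fit was also run on simulated counts with known fold changes. Those counts held no sex difference and no outlying library, so they say nothing of how such features affect the calls.

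The members and lists were chosen with earlier results of these data known. Named beside the members were the 3 genes most like each, by Pearson's r of log2 CPM (prior count 2), and from each list all called genes up to 5, otherwise the 3 with the smallest p, plus Isg15, Irf7 and Ifit3. A further gene of this rule is not reported here. Other family genes, Ccr2, Pecam1 and Gbp3 were named after their values were seen. Alternatives were DESeq2 1.42.0 size factors, upper-quartile factors, no filter beyond 1 read, a mean of at least 50 counts, limma-voom (limma 3.58.1), the exact test of edgeR, the Wald test of DESeq2, a fit of only the 6 libraries compared, a replicate block, a term for libraries with more than 10 CPM of Y-linked reads, and leaving out each library, 19 settings in all. Protein sequences were not used here.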

Additional observations from a re-analysis of the deposited data

How the results depend on the processing

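Over 19 alternatives and the 12 member differences, 203 of 228 values kept their direction and their side of the threshold, 15 lost the call, 9 gained it and 1 changed sign: Ly6c1 in SN-011 against WT, at 0.02 without SN-011 replicate 1, -0.07 with it, and -0.21 to 0.02 over all omissions of a library. In PBS against WT, 2 members were called, 1 to 3 when a library was left out, with 1 without WT replicate 1 or 2, any PBS replicate or SN-011 replicate 3. In SN-011 against PBS, 0 were called, 0 to 2 when a library was left out, with 2 without SN-011 replicate 2. In SN-011 against WT, 1 was called, 0 to 1 when a library was left out, and 0 with limma-voom and with only the 6 libraries compared. Deviations of same-numbered libraries correlated at 0.133, -0.008 and 0.102 between WT and PBS, at 0.238, -0.294 and -0.143 between WT and SN-011, and at 0.198, 0.242 and 0.098 between PBS and SN-011. Differently numbered libraries of PBS and SN-011 correlated at -0.216 to 0.091, below each same-numbered pair of these groups. In both comparisons with WT, same-numbered and differently numbered pairs overlapped. Not every same-numbered pair was above 0.1, so the numbers were not taken to pair the samples. In PBS against SN-011 the block left 0 members and 0 genes called. With the replicate block, 3 members were called in PBS against WT (Ly6a 0.94, adjusted p 0.0401), and 312 genes in place of 313. Beside the 313 genes called in PBS against WT there were 707 with no filter, 726 with DESeq2, 683 with edgeR's exact test, 751 with only 6 libraries, 198 with the Y-linked term and 153 to 774 with a library left out. Beside the 213 genes of SN-011 against WT there were 607, 806, 601, 43, 656 and 38 to 376 in the same order, and beside the 0 of SN-011 against PBS there were 127, 183, 127, 0, 0 and 0 to 519. Causes were not tested. With 13 to 31 counts in WT, Ly6c2 has the least certain level of the members.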
